A study of Xenopus tropicalis with 132 samples.

Results

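The FoxI genes encode forkhead transcription factors, and 2 of them, foxi1 and foxi4.2, are described here in Xenopus tropicalis gastrulae. They were chosen by symbol, with earlier results of these data known, out of 26550 targets listed in the cap tables and the cell tables alike. Both genes were found in each. RefSeq (assembly UCB_Xtro_10.0, used for names and neighbours) lists foxi1 also as Xema and FoxI1e, and places it on chromosome 3 between lcp2 and dock2. It lists foxi4.2 also as foxi4 and XFD2, and places it on chromosome 1 directly beside foxi4.1. The older name foxi1a is given there for both genes, so older data under that name can mean either.

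Bulk RNA-seq was made of animal caps, the pluripotent roof of the blastula that forms ectoderm when left alone, at stage 10.5 (gastrula). The 16 libraries fell into 8 groups of 2, in which the embryos had received mRNA of Eomes, Foxb1+Eomes, Otx2, Irx3+Otx2, Irx3, Foxb1 or Lhx8, or were labelled WI. The labels do not spell out WI, which served as the comparison group, and give neither mRNA doses nor whether replicates came from separate clutches, so that p-values measure only the spread between these libraries, which may be technical. Single-cell RNA-seq covered 100 cells of the same stage from dissected explants, 25 in each of the libraries BL 1, BL 2, AC 1 and AC 2. The labels speak of 200 picked cells, and the series text names the animal cap and the dorsal marginal zone as explants, without saying which of them BL is.

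In Xenopus laevis, foxi1 (as FoxI1e or Xema) is known as an activator of ectodermal genes that holds back mesoderm and endoderm genes in the animal region, and foxi2 as a maternal factor that switches foxi1 on. In the later skin, foxi1 drives the ion-transporting cells called ionocytes, and Notch signalling limits how many cells take that fate. The T-box factor Eomes and the T-box factor VegT drive mesendoderm, the homeobox factor Otx2 acts in the organizer and the head, and BMP signals keep ectoderm epidermal.

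Bulk libraries held between 3234618 and 9218401 estimated counts. Library numbers in the file names run in 3 sets (1 to 6, 7 to 11 and 12 to 16), of unstated origin. Set 3 holds both Eomes libraries, both Otx2 libraries and Irx3+Otx2 2, and no WI library, so that for Eomes and Otx2 against WI the set and the injected factor cannot be told apart. As a check of the cap tissue, 17 ectoderm genes summed to 2234 and 1740 TPM in WI, with none at 0. Levels differed between them, with the ectoderm factor tfap2a at 213 and 183 TPM and tp63 at only 2.00 and 4.41 TPM. In the same WI libraries 30 mesendoderm genes summed to 38.4 and 49.95 TPM, with 9 and 7 of them at 0. No 2 libraries and no 2 cells held identical values.

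foxi4.2 was an abundant transcript of the caps and was low wherever Eomes or Otx2 had been injected. On the TPM scale (the authors' level, corrected for transcript length), it stood at 155 and 146 TPM in Eomes caps, 141 and 231 TPM in Foxb1+Eomes caps, 179.9 and 133 TPM in Otx2 caps and 82.1 and 159 TPM in Irx3+Otx2 caps. It stood at 429.8 and 372 TPM in Irx3 caps, 418 and 719.9 TPM in Foxb1 caps, 441 and 364 TPM in Lhx8 caps and 563 and 579 TPM in WI caps. Each of the 8 libraries whose labels name Eomes or Otx2, at 82.1 to 231 TPM (median 151), therefore lay under each of the 8 others, at 364 to 719.9 TPM (median 435). This split by label was drawn after the values were seen and was given no test of its own. How many other genes split the same way was not counted. Of the 8 lower libraries 5 make up all of set 3, so the split partly follows the library set. In bulk caps, fewer cells of a type and less RNA per cell cannot be told apart.

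**Figure D1:**
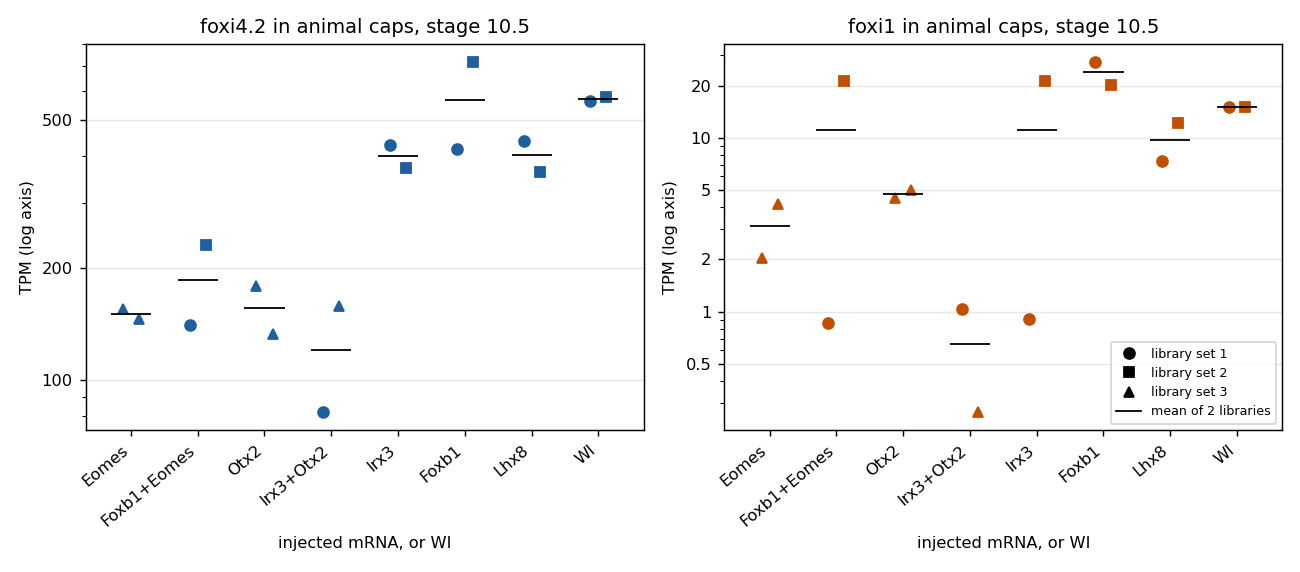
TPM of foxi4.2 (left) and foxi1 (right) in each of the 16 cap libraries, on log axes; point shape gives the library set and each bar the mean of the 2 libraries of a group. All foxi4.2 points of the 4 groups on the left lie at or under 231 TPM and all others at or above 364 TPM, while foxi1 spans 0.264 to 27.5 TPM and splits within Irx3 and within Foxb1+Eomes.

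Ordered by group mean, foxi4.2 was at 120.4 ± 54.3 TPM in Irx3+Otx2, 151 ± 6.40 in Eomes, 157 ± 33.0 in Otx2, 186 ± 63.5 in Foxb1+Eomes, 401 ± 41.0 in Irx3, 402 ± 54.3 in Lhx8, 569 ± 213 in Foxb1 and 571 ± 10.9 TPM in WI (SD, n = 2 each). Only the step between Foxb1+Eomes and Irx3 separated neighbours whose libraries did not overlap. Groups of 2 libraries often lie apart without any change, so a lack of overlap is only a description, here and below. The share of all genes without overlap was not counted. By TPM, foxi4.2 ranked between place 171 (Foxb1 2) and place 977 (Irx3+Otx2 1) among all targets of its library. Estimated counts behind these values ran from 905 to 5523 and were whole numbers in 16 of 16 libraries (tolerance 0.001), where reads divided between near-identical targets, such as a copy in foxi4.1, could leave fractions.

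For tests, estimated counts were scaled to library size with TMM factors (CPM, a level not corrected for length), and edgeR's quasi-likelihood test was run over 14176 genes with Benjamini-Hochberg adjustment and a threshold of 0.05. That test reports no SE of its own. The SE given for an edgeR log2 change is its absolute size divided by the square root of the test's F statistic. In Eomes caps foxi4.2 had 165 and 129.7 CPM, against 995 and 931 CPM in WI. The libraries did not overlap, and foxi4.2 fell by 2.71 on the log2 scale (SE 0.39, edgeR adjusted p 0.0190), which is 6.53-fold, as 1 of 6 genes called lower, 0.0423% of those tested. Irx3+Otx2 caps had 159.9 and 138 CPM against the same WI values, and foxi4.2 fell by 2.69 (SE 0.39, edgeR adjusted p 0.0220), again as 1 of 6 genes called lower (0.0423%) of 18 called in all (0.127%). By p-value it took place 8 of all genes in both comparisons, which share their WI libraries. Both calls were lost with the library set as a term (log2 change −2.48 for Eomes and −2.58 for Irx3+Otx2; edgeR adjusted p 0.992 and 0.122) and without any 1 of the compared libraries (−2.89 to −2.57, edgeR adjusted p 0.120 to 0.255, for Eomes; −2.80 to −2.58, 0.0828 to 0.227, for Irx3+Otx2). The Irx3+Otx2 call was also lost when only the 4 compared libraries were fitted (−2.68, edgeR adjusted p 0.0990). Within set 1, Irx3+Otx2 1 stood at 159.9 CPM and WI 1 at 995 CPM, a difference of −2.63 in log2(CPM + 1).

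Otx2 and Foxb1+Eomes caps had likewise low foxi4.2, which DESeq2 called and edgeR with its filter on low counts did not. Without that filter edgeR called it in both (edgeR adjusted p 9.46e-06 and 0.00571). That setting called 1096 genes in all in Otx2 caps and 302 in Foxb1+Eomes caps, where DESeq2 called 112. Otx2 caps had 209 and 119.9 CPM, against 995 and 931 CPM in WI, a log2 change of −2.55 (SE 0.39) with an edgeR adjusted p of 0.101, although no other gene had a smaller p-value there. In that comparison edgeR called 0 genes (0%), 2358 had an unadjusted p under 0.05, and DESeq2 called 504, foxi4.2 among them with a log2 change of −2.55 and a DESeq2 adjusted p of 7.43e-08. Foxb1+Eomes caps had 245 and 304 CPM against the same WI values, a log2 change of −1.81 (SE 0.38, edgeR adjusted p 0.0860; DESeq2 adjusted p 0.000395) in a comparison where 49 genes were called, all higher (0.346%). Within library sets the Foxb1+Eomes difference was −2.02 in set 1 and −1.61 in set 2, on the log2(CPM + 1) scale. In the 3 libraries of sets 1 and 2 whose labels name Eomes or Otx2, foxi4.2 stood at 159.9 to 304 CPM, and in the 8 others of those sets at 531 to 1045 CPM, without overlap.

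Where neither Eomes nor Otx2 was injected, foxi4.2 was nearer to its WI level. Irx3 caps had 754 and 531 CPM and Lhx8 caps 777 and 580.4 CPM, against 995 and 931 CPM in WI. Both lay under WI without overlap, yet the log2 changes of −0.58 (95% interval −1.31 to 0.14) and −0.50 (−1.23 to 0.22) had edgeR adjusted p-values of 1. Foxb1 caps, at 589.7 and 1045 CPM, lay on both sides of WI (log2 change −0.24, 95% interval −0.96 to 0.49, edgeR adjusted p 1). edgeR called 0 genes in Irx3 (0%; 196 with an unadjusted p under 0.05; 6 by DESeq2), 0 in Foxb1 (0%; 85; 1 by DESeq2) and 1 in Lhx8 (0.00705%; 213; 14 by DESeq2). These intervals hold both no change and falls of more than 1 log2 unit for Irx3 and Lhx8, so the caps are not shown to be alike. Intervals of log2 changes, here and below, take the multiple of the SE from a normal distribution. With so few libraries that makes them somewhat too narrow.

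**Figure D2:**
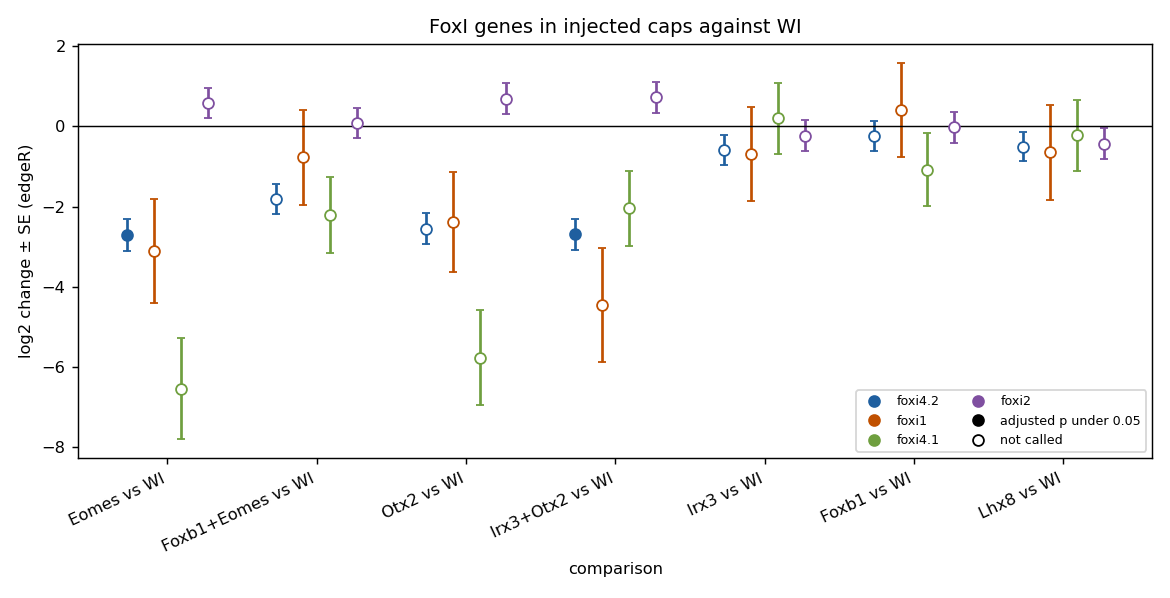
Log2 change against WI, with its SE, of the 4 FoxI genes in the 7 injected groups, from 1 edgeR fit; filled points have an adjusted p under 0.05. Only foxi4.2 in Eomes (−2.71) and in Irx3+Otx2 (−2.69) is filled; foxi1 has wide errors, and foxi2 lies above 0 in Eomes, Otx2 and Irx3+Otx2.

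Adding the second factor of a pair gave the following for foxi4.2. Foxb1+Eomes caps, at 245 and 304 CPM, lay above Eomes caps at 165 and 129.7 CPM, and the log2 change of 0.90 (SE 0.37) had an edgeR adjusted p of 0.287. Both Eomes libraries are in set 3 and both Foxb1+Eomes libraries in sets 1 and 2. The library set and the added Foxb1 therefore cannot be told apart here. The eomes level also differed, at 727 and 342 TPM in Eomes caps against 215 and 169 TPM in Foxb1+Eomes caps. Foxb1+Eomes caps lay under Foxb1 caps, at 589.7 and 1045 CPM, with a log2 change of −1.57 (SE 0.38, edgeR adjusted p 0.284; DESeq2 adjusted p 0.00856). In these 2 comparisons edgeR called 6 genes (0.0423%) and 10 genes (0.0705%), all higher. Irx3+Otx2 caps, at 159.9 and 138 CPM, lay inside the range of Otx2 caps, at 209 and 119.9 CPM (log2 change −0.14, 95% interval −0.87 to 0.58, edgeR adjusted p 1). There edgeR called 0 genes (0%), 668 had an unadjusted p under 0.05, and DESeq2 called 26. Against Irx3 caps, at 754 and 531 CPM, they were lower without overlap, a log2 change of −2.11 (SE 0.39, edgeR adjusted p 0.0775; DESeq2 adjusted p 3.62e-05; 7 genes called, all higher, 0.0494%).

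foxi1 was a much rarer transcript with another pattern. It stood at 2.03 and 4.18 TPM in Eomes caps, 0.856 and 21.3 TPM in Foxb1+Eomes caps, 4.52 and 5.02 TPM in Otx2 caps and 1.04 and 0.264 TPM in Irx3+Otx2 caps. It stood at 0.909 and 21.3 TPM in Irx3 caps, 27.5 and 20.3 TPM in Foxb1 caps, 7.33 and 12.2 TPM in Lhx8 caps and 15.1 and 15.1 TPM in WI caps. Foxb1 1 was the highest library, ahead of Irx3 2, Foxb1+Eomes 2 and Foxb1 2, and Irx3+Otx2 2 was the lowest. The estimated counts were small, from 2 in Irx3+Otx2 2 to 234 in Foxb1+Eomes 2, and the 2 counts leave an exact 95% Poisson interval of 0.0319 to 0.952 TPM, which covers counting error only.

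Ordered by group mean among the injected caps, foxi1 was at 0.653 ± 0.551 TPM in Irx3+Otx2, 3.10 ± 1.53 in Eomes, 4.77 ± 0.357 in Otx2, 9.78 ± 3.47 in Lhx8, 11.1 ± 14.4 in Foxb1+Eomes, 11.1 ± 14.4 in Irx3 and 23.9 ± 5.1 in Foxb1 (SD, n = 2 each). WI, at 15.1 ± 0.0416 TPM (SD, n = 2), lay between Irx3 and Foxb1 in that order. Irx3+Otx2 and Eomes, Eomes and Otx2, Otx2 and Lhx8, and Foxb1 and WI were the neighbours whose libraries did not overlap. In 16 of 16 libraries foxi4.2 lay above foxi1, by 10.8-fold in Foxb1+Eomes 2 up to 602-fold in Irx3+Otx2 2, and by 37.3-fold and 38.4-fold in WI, all on the TPM scale. foxi1 ranked between place 3579 (Foxb1 1) and place 17136 (Irx3+Otx2 2) by TPM. Its 8 libraries with Eomes or Otx2 in the label, at 0.264 to 21.3 TPM (median 3.10), overlapped the 8 others, at 0.909 to 27.5 TPM (median 15.1).

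The edgeR test over the 16 libraries, with its filter on low counts, called foxi1 in no comparison of caps, but other methods and settings did. DESeq2 called it in Irx3+Otx2 against WI (log2 change −4.44, DESeq2 adjusted p 0.00914) and against Irx3 (−3.74, 0.0423), and edgeR on only the compared libraries called it in Eomes against WI (−3.10, edgeR adjusted p 0.0359). In those comparisons DESeq2 called 292 and 338 genes in all, and edgeR on the compared libraries 96. The edgeR test over the 16 libraries called 18, 7 and 28. Irx3+Otx2 caps had 2.60 and 0.291 CPM, against 34.3 and 30.8 CPM in WI, a log2 change of −4.46 (SE 1.41, edgeR adjusted p 0.264). Eomes caps had 2.74 and 4.71 CPM against the same WI values, a log2 change of −3.10 (SE 1.30, edgeR adjusted p 0.232), and Otx2 caps 6.67 and 5.74 CPM, a log2 change of −2.39 (SE 1.25, edgeR adjusted p 0.359). In these 3 groups no library reached the WI level, and the standard errors of foxi1 (1.25 to 1.41) were far above those of foxi4.2 in the same comparisons (0.39 each). With the library set as a term the estimates for Eomes (0.50, SE 2.48) and Otx2 (1.21, SE 2.64) turned positive, each smaller than its SE. In that fit only Irx3+Otx2, with 19 and 2 estimated counts of foxi1, links set 3 to another set, so neither sign is settled. All 5 libraries of set 3 had foxi1 at 0.291 to 6.67 CPM, and the 5 libraries of set 2 at 24.7 to 38.5 CPM. Within set 1, where the comparison can be made, Irx3+Otx2 1 stood at 2.60 CPM and WI 1 at 34.3 CPM, a difference of −3.29 in log2(CPM + 1). Foxb1 caps had 49.3 and 37.3 CPM (log2 change 0.41, SE 1.17), and Lhx8 caps 16.6 and 24.7 CPM (−0.65, SE 1.18), each with an edgeR adjusted p of 1.

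The replicates of Irx3 and of Foxb1+Eomes split for foxi1 but not for foxi4.2. Irx3 1 had 2.05 CPM of foxi1 and Irx3 2 had 38.5 CPM, a 23.4-fold step in TPM, while foxi4.2 was at 754 and 531 CPM in the same libraries. Foxb1+Eomes 1 had 1.91 CPM and Foxb1+Eomes 2 had 35.5 CPM, a 24.8-fold step in TPM, with foxi4.2 at 245 and 304 CPM. In both groups the low library belongs to set 1 and the high one to set 2, and against the WI library of the same set the differences in log2(CPM + 1) were −3.53 and 0.31 for Irx3 and −3.60 and 0.20 for Foxb1+Eomes. The group changes against WI, −0.69 for Irx3 (SE 1.18, edgeR adjusted p 1) and −0.78 for Foxb1+Eomes (SE 1.18, edgeR adjusted p 1), are averages over these opposite values and describe neither library. Other WI, Foxb1 and Lhx8 libraries of set 1 had foxi1 at 34.3, 49.3 and 16.6 CPM, so low foxi1 was not shared by all of set 1.

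Several measures differed along with that split. The injected irx3 itself stood at 782 TPM in Irx3 1 and 104.9 TPM in Irx3 2, whereas eomes stood at 215 and 169 TPM in the Foxb1+Eomes libraries. The 17 ectoderm genes summed to 907 and 3227 TPM in Irx3 and to 913 and 2011 TPM in Foxb1+Eomes, against 2234 and 1740 TPM in WI (none at 0 in any of these libraries). The 17 BMP genes summed to 1449 and 3504 TPM in Irx3 and 1614 and 2919 TPM in Foxb1+Eomes, against 2578 and 2672 TPM in WI. Mesendoderm genes summed to 51.8 and 73.5 TPM in Irx3 and 1257 and 956 TPM in Foxb1+Eomes. In each group, then, the library with high foxi1 was also the one with high ectoderm and BMP sums, and the part of either, or of the injected amount, in the foxi1 values was not tested.

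**Figure D3:**
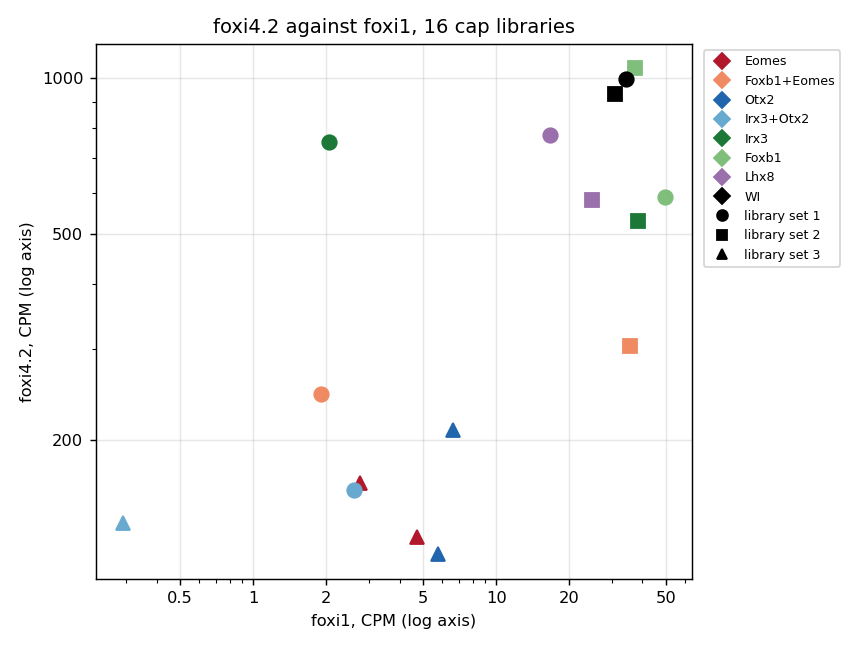
foxi4.2 against foxi1 in CPM for the 16 cap libraries, on log axes; colour gives the group and shape the library set. Libraries named for Eomes or Otx2 lie at or under 304 CPM of foxi4.2, and Irx3 1 (2.05 CPM of foxi1, 754 CPM of foxi4.2) and Foxb1+Eomes 2 (35.5 and 304 CPM) show that the genes did not always move together.

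Pair comparisons of foxi1 rested on the same split libraries. Foxb1+Eomes against Eomes, which share no library set, gave a log2 change of 2.32 (SE 1.27, edgeR adjusted p 0.393). It was 3.23 without Foxb1+Eomes 1 and −0.98 without Foxb1+Eomes 2. Foxb1+Eomes against Foxb1 gave −1.19 (SE 1.18, edgeR adjusted p 1), with −4.49 and −0.28 at the ends of that range. Irx3+Otx2 against Otx2 gave −2.07 (SE 1.36, edgeR adjusted p 1), and Irx3+Otx2 2 at 0.291 CPM also lay under both Otx2 libraries of its own set. Irx3+Otx2 against Irx3 gave −3.77 (SE 1.39, edgeR adjusted p 0.269), but within set 1 the pair and Irx3 alone were at 2.60 and 2.05 CPM.

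Across the 16 libraries, log2(CPM + 1) of foxi1 and foxi4.2 had a Pearson correlation of 0.697 (Spearman's rho 0.574), and 0.535 in sets 1 and 2 alone. These points share groups and library sets, so the value is a description. Of the remaining FoxI genes, foxi4.1 tracked foxi4.2 with 0.834 and foxi1 with 0.581, while foxi2 ran opposite to both (−0.703 to foxi4.2 and −0.740 to foxi1).

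The neighbour gene foxi4.1 had low levels in Eomes and Otx2 caps too, without a call in the edgeR test over the 16 libraries with its filter on low counts. It stood at 0.948 and 0.183 TPM in Eomes caps and 1.22 and 0.549 TPM in Otx2 caps, against 38.8 and 21.6 TPM in WI. The log2 changes were −6.54 (SE 1.27, edgeR adjusted p 0.0728) and −5.77 (SE 1.19, edgeR adjusted p 0.158), on 1 to 6 counts in the injected libraries. DESeq2 called both (−6.56 and −5.78, DESeq2 adjusted p 1.40e-06 and 1.74e-05), as did edgeR on only the compared libraries (edgeR adjusted p 0.0296 and 0.0441). In those comparisons DESeq2 called 889 and 504 genes in all, and edgeR on the compared libraries 96 and 14. With the library set as a term foxi4.1 stood at −4.69 in Eomes caps (SE 1.76, edgeR adjusted p 0.992). All 5 libraries of set 3 held it at 0.118 to 4.36 CPM. It also lay under WI (48.8 and 25.2 CPM) in Foxb1+Eomes caps (0.954 and 14.6 CPM, log2 change −2.20) and Irx3+Otx2 caps (13.4 and 4.36 CPM, −2.05). foxi2 lay the other way in 3 of the 4 groups with low foxi4.2: 190.2 and 202 TPM in Eomes caps, 183 and 221 TPM in Otx2 caps and 119.6 and 214 TPM in Irx3+Otx2 caps, against 62.3 and 89.5 TPM in WI. Its log2 changes of 0.58, 0.69 and 0.72 (SE 0.38 each) had edgeR adjusted p-values of 0.431, 0.377 and 0.442, and set 3 held foxi2 at 198 to 234 CPM. In Foxb1+Eomes caps, the fourth such group, foxi2 was at 108.9 and 61.8 TPM, on both sides of the WI libraries (log2 change 0.09, edgeR adjusted p 1). In all 6 libraries of Eomes, Otx2 and Irx3+Otx2 caps foxi2 was above foxi4.2, at 1.02 to 1.66 times its TPM, against 0.111 and 0.155 times in WI.

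foxi4.2 did not stand alone among ectoderm genes. Of 17 ectoderm genes tested, 16 were lower in Eomes caps than in WI (median log2 change −1.86), 16 in Otx2 caps (−1.80), 15 in Irx3+Otx2 caps (−1.73) and 15 in Foxb1+Eomes caps (−1.15), and edgeR called none of them. The median over all 14176 genes lay between 0.01 and 0.07 in these comparisons. With its −2.71 in Eomes caps foxi4.2 had 6 ectoderm genes below it, and it had 7 below it in Otx2 caps and 5 in Irx3+Otx2 caps. In Foxb1+Eomes caps its −1.81 (SE 0.38) had 0 of 17 below it, but the lowest of the list was at −1.73, so the order there is not settled. The list changes there also average unlike libraries: tfap2a stood at 20.3 and 193 TPM in Foxb1+Eomes caps, against 213 and 183 TPM in WI.

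Summed levels of mesoderm and endoderm genes were above WI in the groups with low foxi4.2, though gene by gene the groups differed. The 30 mesendoderm genes summed to 361 and 668 TPM in Eomes caps, 1257 and 956 TPM in Foxb1+Eomes caps, 158 and 134 TPM in Otx2 caps and 105.4 and 248 TPM in Irx3+Otx2 caps, against 38.4 and 49.95 TPM in WI. In Eomes caps and in Foxb1+Eomes caps 24 of the 26 tested were higher and 2 lower (median log2 change 2.67 and 4.82). In Otx2 caps 15 were higher and 10 lower (median 0.91, 0 called), and in Irx3+Otx2 caps 16 and 8 (median 1.05). The gene vegt alone stood at 77.6 and 48.6 TPM in Otx2 caps. The edgeR test called 4 of the 26 tested higher in Eomes caps (mixer, mix1, sox17a and foxa4), where 22 of all genes were called higher (0.155%) and 28 in either direction (0.198%). It called 10 higher in Foxb1+Eomes caps, where all 49 called genes were higher (0.346%). It called 2 higher in Irx3+Otx2 caps (chrd, which encodes a BMP antagonist, and the endoderm factor sox17a), where 12 of all genes were (0.0847%). All 4 calls in Eomes caps were lost with the library set as a term (edgeR adjusted p 0.121 to 0.992), and those of mixer and foxa4 also with only the compared libraries (0.0733 and 0.0758), as was that of sox17a in Irx3+Otx2 caps (0.147). Caps with Lhx8, where foxi4.2 was at 441 and 364 TPM, summed to 141 and 168 TPM of mesendoderm genes, within the range of Otx2 and Irx3+Otx2 caps. With Lhx8, 24 of the 26 were higher and 1 lower (median log2 change 1.59, 0 called). The part of these genes in the foxi4.2 values was not tested.

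Pathway genes around the FoxI factors gave few calls. Of 17 BMP genes tested, 14 were lower in Eomes caps (median −1.47) and 16 in Irx3+Otx2 caps (median −1.74), where edgeR called ventx2.1, a ventral homeobox target of BMP, lower (log2 change −2.22, edgeR adjusted p 0.0322; 97.9 and 103 CPM against 436 and 502 CPM in WI). The ventx2.1 call was lost with the library set as a term (edgeR adjusted p 0.108), with only the compared libraries (0.0990) and without any 1 of the compared libraries (0.105 to 0.233). Of 13 Notch genes tested, only the ligand gene dlc was called, in Irx3+Otx2 caps (log2 change −4.09, edgeR adjusted p 0.0322), and that call was lost with the library set as a term (0.155) and without any 1 of the compared libraries (0.113 to 0.227). Of 13 genes of later skin cell types (ionocytes, which foxi1 drives, and ciliated and secretory cells), none was called except foxa1, which was higher in Foxb1+Eomes caps (log2 change 4.28, edgeR adjusted p 0.0214) and marks endoderm as well as secretory skin cells. Their median log2 change was −0.03 in Eomes caps, −0.06 in Foxb1+Eomes caps, −0.41 in Otx2 caps and −0.96 in Irx3+Otx2 caps. The 14 genes found of this list summed to 75.0 and 199 TPM in Irx3+Otx2 caps, against 167 and 151 TPM in WI. The library at 199 TPM, Irx3+Otx2 2, was the one with the lowest foxi1 (0.264 TPM). Of 10 neural plate genes, foxd4l1.1 was called higher in Eomes caps (log2 change 3.15, edgeR adjusted p 0.0334) and in Foxb1+Eomes caps (2.76, edgeR adjusted p 0.0479). Both foxd4l1.1 calls were lost with the library set as a term (edgeR adjusted p 0.992 in Eomes and 0.0693 in Foxb1+Eomes). The 10 neural plate genes summed to 1569.7 and 1618 TPM in Eomes caps, 1566 and 2078 TPM in Otx2 caps, 1575 and 1787 TPM in Irx3+Otx2 caps and 849.6 and 905 TPM in Foxb1+Eomes caps, against 562 and 896 TPM in WI, with none at 0. Their sums thus lay above WI in 3 of the 4 groups with low foxi4.2, and their part in the foxi4.2 values was not tested. Sums follow the most abundant genes. Gene by gene, 7 of the 10 were higher in Eomes caps (median log2 change 0.12) and 7 in Otx2 caps (0.66). It was 9 of 10 in Irx3+Otx2 caps (0.89) and 5 of 10 in Foxb1+Eomes caps (0.22). Of 17 calls of list genes against WI that were followed (at most 6 per list and comparison, the ones named above among them), 0 remained without either of the WI libraries (edgeR adjusted p 0.0792 to 0.607), and 0 of the 5 in Eomes caps without Eomes 2 (0.105 to 0.209).

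The genes with the pattern most like each member were found by Pearson correlation of log2(CPM + 1) over the 16 libraries, among 8441 genes with a symbol and a mean of at least 2 log2 CPM. For foxi1 these were gfod1 (0.942), gatm (0.928), tp53inp2-like (0.915), klf5 (0.908) and klf2 (0.902), and the most opposite was bnip1 (−0.868), followed by lrrc45-like (−0.841) and thumpd3 (−0.839). For foxi4.2 they were pcbp3 (0.945), ndufb4 (0.944), ago2 (0.930), smad4.1 (0.929) and akt1s1 (0.929), and the most opposite were secisbp2l (−0.958), acrc (−0.958) and adcy6 (−0.940). No gene was on both lists. Sets 1 and 2 alone are part of the same 16 libraries and so no separate check. In them the 5 genes most like foxi1 had 0.856 to 0.956 to it, and the 5 most like foxi4.2 had 0.832 to 0.917.

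In single cells, foxi4.2 reads were found mainly in AC cells. At least 1 read was present in 6 of 25 BL 1 cells (24%, exact 95% binomial interval 9.36 to 45.1%) and 6 of 25 BL 2 cells (24%), against 20 of 25 AC 1 cells (80%, 59.3 to 93.2%) and 16 of 25 AC 2 cells (64%, 42.5 to 82.0%). The intervals of AC 1 and of both BL libraries do not overlap, and that of AC 2 overlaps theirs. These intervals cover counting error only, since the cells of 1 library share a source. Reads also carry no molecular identifiers. AC cells were deeper than BL cells in each numbered pair, with median reads in genes of 51111 and 26325 per cell in BL 1 and BL 2, and of 96589 and 34796 in AC 1 and AC 2. After thinning each cell to 10000 reads, which left 22, 19, 24 and 20 cells, foxi4.2 was seen in 18.2% and 21.1% of BL cells, against 70.8% and 55% of AC cells. Of mesendoderm genes, sox17a (endoderm) had a read in 11 and 16 of 25 BL cells, against 1 and 4 of 25 AC cells, and gsc (organizer) in 20 and 23 of 25 BL cells, against 0 and 0 of 25 AC cells. Not all genes of that list were so rare in AC cells. Reads of mix1 were in 17 and 19 of 25 BL cells, against 7 and 1 of 25 AC cells. Reads of vegt were in 24 and 24 of 25 BL cells, and also in 20 and 17 of 25 AC cells.

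Summed over the cells of a library, foxi4.2 had 57.1 and 41.6 CPM in BL, against 292 and 141 CPM in AC. Both AC sums lay above both BL sums, a log2 change of −2.13 (SE 0.54) with an unadjusted p of 0.00508 and an adjusted p of 0.519 by edgeR's quasi-likelihood test over 8898 genes. The test called 0 genes there (0%), with 483 at an unadjusted p under 0.05, and DESeq2 called 116. Among the 2 genes of smallest p per list, tfap2a (31.4 and 41.6 CPM in BL, 240.03 and 416 CPM in AC) and grhl1 (17 and 18.5 CPM in BL, 157 and 320 CPM in AC) of the ectoderm list lay on the same side as foxi4.2, and vegt (1473 and 1760 CPM in BL, 77.9 and 57.1 CPM in AC) and gsc (690.04 and 2559 CPM in BL, 0 and 0 CPM in AC) on the other. By list, 9 of 10 ectoderm genes tested were lower in BL and 1 was higher, and 17 of 17 mesendoderm genes were higher. The ectoderm gene higher in BL was gata2, at 22.2 and 299 CPM in BL, against 13.8 and 29.0 CPM in AC. The mesendoderm list summed to 4610 and 9604 CPM in BL, against 177 and 149 CPM in AC, and the ectoderm list to 1002 and 1852 CPM in BL, against 2174 and 3572 CPM in AC. foxi2 had 121.5 and 86.3 CPM in BL, against 236 and 194 CPM in AC (log2 change −1.04, edgeR adjusted p 0.895), so here it lay on the same side as foxi4.2.

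**Figure D4:**
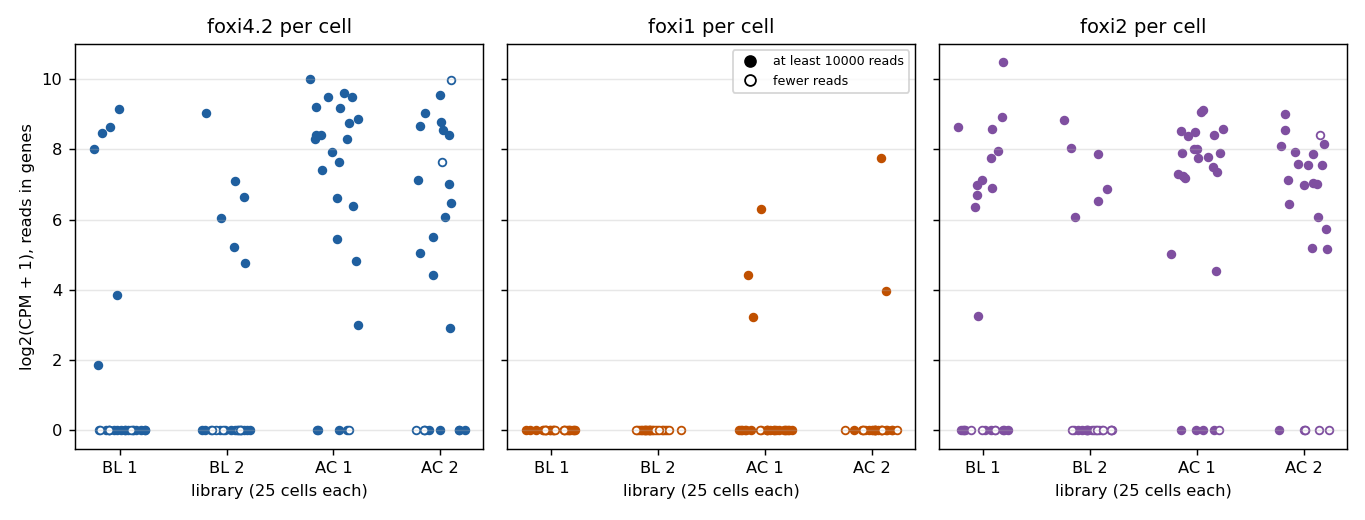
log2(CPM + 1) of foxi4.2, foxi1 and foxi2 in each cell of the 4 explant libraries; open points are cells under 10000 reads in genes, and points at 0 hold no read. foxi4.2 was read in 12 of 50 BL cells and 36 of 50 AC cells, foxi1 in 0 of 50 and 5 of 50.

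foxi1 was read in AC cells alone, and in few. It had a read in 0 of 25 cells of BL 1 and BL 2 each, and in 3 of 25 AC 1 cells and 2 of 25 AC 2 cells (12% and 8%). The 23 reads in AC were 5.57 CPM over both libraries, 5.58-fold the level that 3 reads would give over the BL group (0.998 CPM). That floor treats reads as independent, which they are not, so it is no lower bound on the difference. For the share of cells with a read, 0 of 25 cells in each BL library leaves an exact 95% binomial upper bound of 13.7%. The bound lies above the AC shares of 12% and 8%, so a lower share in BL is not shown. A single cell held 73.3% of the foxi1 reads of AC 1 and another 75% of those of AC 2, so the level of each library rests on 1 cell. foxi1 did not pass the filter on low counts, so the filtered test between BL and AC left it out. In an edgeR fit without that filter its log2 change was −6.44 (SE 3.72, edgeR unadjusted p 0.0836), with 0 CPM in both BL sums. foxi4.1 had no read in any of the 100 cells, although the WI caps held it at 38.8 and 21.6 TPM.

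All 5 cells with foxi1 reads also held foxi4.2 reads. In AC 1 they had 11, 3 and 1 reads of foxi1 beside 24, 46 and 51 of foxi4.2, and in AC 2 they had 2 and 6 reads beside 12 and 21. Each of the 5 also held reads of foxi2, of the ectoderm factors tfap2a, tfap2c and grhl3, and of the SoxB1 genes sox2 and sox3. None held reads of sox17a, mix1, gsc or t, and 1 of the 5 held chrd reads. The same genes were read, or not read, in most AC cells. Of all 44 AC cells with at least 10000 reads, sox3 was read in 44, tfap2c in 42, tfap2a in 41, sox2 in 40, foxi2 in 38 and grhl3 in 35, and mix1 in 8, sox17a in 5, t in 4, chrd in 1 and gsc in 0.

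Most BL cells with foxi4.2 reads also held gsc and mix1 reads, as did most BL cells. Of 41 BL cells with at least 10000 reads, 12 held foxi4.2, and of these 12 held gsc, 11 mix1, 8 sox17a, 7 tfap2c, 6 foxi2 and 3 tfap2a. Over all 41, gsc was read in 37, mix1 in 34, sox17a in 24, tfap2c in 21, foxi2 in 18 and tfap2a in 8. Of 44 AC cells, 34 held foxi4.2, and of these 34 held sox3, 33 tfap2a, 32 tfap2c, 30 foxi2 and 27 grhl3, while 4 held sox17a and 0 gsc. Per cell with a read, foxi4.2 had a median of 304 CPM (2.66 to 567) in BL 1 and 81.7 CPM (26.4 to 522) in BL 2, against 326 CPM (6.93 to 1021) in AC 1 and 133 CPM (6.50 to 753) in AC 2. These ranges overlap between all 4 libraries.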

How the data were processed

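The members and gene lists were chosen with earlier results of these data known. The authors deposited 1 bulk table per library with estimated counts and TPM per target, per the file headers, whose columns are those kallisto writes. The submitters' processing notes name STAR 2.5.0 for the RNA-seq samples, and the genome build is not given in the sources used here. The deposited single-cell tables hold read counts per gene and cell, without molecular identifiers; lines for reads outside genes (23.6 to 32.2% per library) and not aligned were left out. The TPM are used as deposited, and CPM were computed here.

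Estimated counts were rounded (16.5% of values were not whole) and tested with edgeR 4.0.16 in R 4.3.3 (filterByExpr, TMM, robust quasi-likelihood fit), with all 16 cap libraries modelled together on group alone, and p-values were adjusted by Benjamini-Hochberg over 14176 genes. Cells were summed per library before testing. Symbols were taken from the files; 11 of 120 list entries, foxi3 among them, were not found under their names. Eomes and the other injected genes were left out of list sums in caps. Besides the members and FoxI genes, the text names called list genes (at most 6 per list), the 5 most and 3 least correlated genes, and, between BL and AC, the 2 list genes of smallest p. DESeq2 1.42.0, other filters, scalings and sample sets were tried, and the scripts were tested on simulated data. ATAC-seq data were not used here.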

Additional observations from a re-analysis of the deposited data

How the results depend on the processing

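With 2 libraries per group, how many genes passed the threshold depended strongly on the method, while the direction of foxi4.2 in caps with Eomes or Otx2 did not reverse under any alternative run against WI. Called genes by DESeq2 numbered 889 (Eomes), 112 (Foxb1+Eomes), 1 (Foxb1), 504 (Otx2), 292 (Irx3+Otx2), 6 (Irx3) and 14 (Lhx8) against WI, 319 and 76 for Foxb1+Eomes against Eomes and Foxb1, 26 and 338 for Irx3+Otx2 against Otx2 and Irx3, and 116 for BL against AC. Without a filter on low counts edgeR called, in the same order, 1433, 302, 15, 1096, 853, 62, 95, 1040, 206, 415, 1105 and 146. With library sets as a term it called 0 in Eomes, 7 in Irx3+Otx2, 0 in Foxb1+Eomes against Eomes and 22 against Foxb1. With only the compared libraries it called 0 in Lhx8, 1 in Foxb1, 30 in Irx3+Otx2, 14 in Otx2, 96 in Eomes, 0 in Foxb1+Eomes against Eomes and 34 in Irx3+Otx2 against Irx3. Cells thinned to 10000 reads gave 17 for BL against AC. The cause of these shifts was not tested, beyond what each alternative changes by construction. Shares of the genes tested were not counted for these alternatives.

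foxi4.2 passed the threshold with DESeq2 in Foxb1+Eomes (−1.81), Otx2 (−2.55), Foxb1+Eomes against Foxb1 (−1.56) and Irx3+Otx2 against Irx3 (−2.06). It did so without a filter in the same comparisons (−1.84, −2.54, −1.62 and −2.07) and in BL against AC (−2.17). It lost its call with library sets as a term in Eomes (−2.48) and Irx3+Otx2 (−2.58), and with only the compared libraries in Irx3+Otx2 (−2.68). foxi1 passed without a filter in Eomes (−3.08), Otx2 (−2.37), Irx3+Otx2 (−4.45), Foxb1+Eomes against Eomes (2.30), Irx3+Otx2 against Otx2 (−2.08) and against Irx3 (−3.72). It passed with DESeq2 in Irx3+Otx2 (−4.44) and against Irx3 (−3.74), and with only the compared libraries in Eomes (−3.10). With library sets as a term foxi1 changed sign in Eomes (0.50, SE 2.48), Otx2 (1.21, SE 2.64) and Foxb1+Eomes against Eomes (−1.96, SE 2.74). In the same fit foxi2 changed sign in Foxb1+Eomes (−0.031, SE 0.31) and in Irx3+Otx2 against Otx2 (−0.15, SE 0.38). Each of these estimates was smaller than its SE.

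Leaving out each library in turn, which leaves 1 library in a group that is assumed to vary like the other groups, moved the called genes to between 0 and 8 in Eomes, 0 and 42 in Foxb1+Eomes, 0 and 7 in Irx3+Otx2, 0 and 2 in Irx3, 0 and 3 in Lhx8, 0 and 7 in Foxb1+Eomes against Eomes, 1 and 11 against Foxb1, 0 and 20 in Irx3+Otx2 against Otx2, 0 and 23 against Irx3, and 5 and 94 in BL against AC. foxi4.2 ran from −2.89 to −2.57 in Eomes and −2.80 to −2.58 in Irx3+Otx2, with no call in any of these fits, and changed sign in Foxb1 (−0.71 to 0.15) and Irx3+Otx2 against Otx2 (−0.48 to 0.29). foxi1 changed sign in Foxb1+Eomes (−4.07 to 0.13), Irx3 (−3.98 to 0.25) and Foxb1+Eomes against Eomes (−0.98 to 3.23). foxi2 did so in Foxb1 (−0.26 to 0.19), Foxb1+Eomes (−0.65 to 0.58), Foxb1+Eomes against Foxb1 (−0.62 to 0.61), Irx3 (−0.60 to 0.055) and Irx3+Otx2 against Otx2 (−0.15 to 0.21), and foxi4.1 in Foxb1+Eomes against Foxb1 (−4.16 to 0.036), Irx3 (−0.19 to 0.75) and Lhx8 (−0.62 to 0.32).

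Groups share replicate numbers, but nothing says that a number marks a clutch or day, and same-numbered libraries deviated together or apart by correlations of −0.243 to 0.428. With the number as a replicate block, edgeR called 1 gene in Otx2, 23 in Foxb1+Eomes against Foxb1, 13 in Irx3+Otx2 against Irx3 and 80 in BL against AC, and foxi2 in Foxb1+Eomes was at −0.0050. With crossed numbers, tried after the data were seen for the comparisons with negative correlations, a replicate block over only the compared libraries called 144 genes in Eomes, 1 in Foxb1, 232 in Otx2, 61 in Foxb1+Eomes against Eomes and 0 in Irx3+Otx2 against Otx2. Low counts limit foxi1, with 2 to 48 estimated counts per library in Eomes, Otx2 and Irx3+Otx2 caps and 23 reads in all cells, and foxi4.1, with 1 to 6 in Eomes and Otx2 caps. In cells foxi4.1 had 0 reads, and the cause of that, depth or another, was not tested. RLE scaling reversed no result, and of the calls named here ended that of foxd4l1.1 in Foxb1+Eomes (2.77, edgeR adjusted p 0.0505).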
